A study of Homo sapiens with 19 samples.

Results

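Arrays of PMA-differentiated THP-1 cells were examined for the genes of the fatty acid and oxysterol receptor system: the peroxisome proliferator-activated receptors PPARG, PPARA and PPARD, their partner RXRA, the liver X receptors NR1H3 (LXR alpha) and NR1H2 (LXR beta), and the fatty acid-binding proteins FABP4 and FABP5. The members were chosen by the gene name printed in the array files, which gave 8 of 31033 gene names and 17 of 50238 probes. THP-1 is a human monocytic leukemia line, and all groups shared its differentiation with 30 nM PMA, a phorbol ester that turns the cells into adherent macrophage-like cells. Cells were then left untreated (UT) or given 0.1 mM vit C, and total RNA was taken after 8, 24, 48 or 96 h. In that order the UT arm had 2, 3, 2 and 3 arrays and the vit C arm 3, 2, 2 and 2, which made 19. The replicates were separate flasks of 1 transformed line by the study's methods, and only RNA that passed an integrity limit was hybridised, which left the groups unequal. The p-values measure the spread between these flasks.

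PPARs and LXRs are nuclear receptors that bind DNA as pairs with a retinoid X receptor such as RXRA. PPARs are activated by fatty acids and their derivatives and act on genes of lipid uptake, storage and burning, whereas LXRs are activated by oxysterols and act on genes of cholesterol export and fatty acid synthesis. FABP4 and FABP5 are small cytosolic carriers that hold fatty acids, and FABP4, first known from adipocytes, is also made by macrophages in which PPARG is active.

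Levels are given as the log2 of the array signal minus the 75th percentile of that array, so that 1 unit is a 2-fold step and 0 lies at the percentile. A value on this scale compares a probe with itself across arrays and not with another probe. The percentile itself ranged from a signal of 290 to 903. Its 2 highest values, 788 and 903, were those of the vit C arrays of 96 h, which alone were scanned on another day. On single arrays between 57.5% and 72.8% of probes exceeded background clearly, as the scanner software judged it. There were 4 slides. Slide 1 held all UT arrays of 8, 24 and 48 h and the first of 96 h, slide 2 the other UT arrays of 96 h with the vit C arrays of 8 and 24 h and the first of 48 h, slide 3 the second vit C array of 48 h, and slide 4 both of 96 h. Slides 1 and 2 were linked only by the UT arrays of 96 h, so that a fit with the slide as a block rests on these 3 arrays when it compares vit C with UT at 8, 24 and 48 h, and at 48 h on 1 vit C array. Its change from 8 to 96 h in UT cells rests on replicate 1 of 96 h. At 96 h slide, scan day and vit C cannot be told apart, since slide 4 held nothing else and was alone scanned on another day. The change from 8 to 96 h with vit C, from slide 2 to slide 4, cannot be told apart from slide and scan day either. Among the UT arrays of 96 h, replicate 3 stood apart, and the lowest correlation between arrays of that group was 0.93 against at least 0.977 in every other group. Values without it are given for FABP4 and FABP5 and beside list counts of 96 h that it moved. As to cell type, of 8 macrophage markers, 7 were above background on all 19 arrays (CSF1R, the receptor for the macrophage growth factor, at 7.92 to 8.66) and LYZ on 18. Of the 5 adipocyte markers, LEP was above background on 2 arrays, PLIN1 and CIDEA on 1 each, and ADIPOQ and CIDEC on all 19. Markers moved with the groups as well. DCN, a fibroblast proteoglycan, was -1.44 and -1.15 in UT cells and 1.11 and 0.99 with vit C at 48 h (2.34, q = 0.00833), and it rose from 8 to 48 h by 4.29 in UT cells and 6.32 with vit C, with 1 array of UT and 2 of vit C below background at 8 h. The other fibroblast markers, COL1A1 and COL1A2, did not pass between the arms, and COL1A1, above background on 5 arrays, was called higher at 24, 48 and 96 h than at 8 h with vit C. ITGAM, an integrin of myeloid cells, was 2.85 and 2.92 in UT cells and 1.72 and 1.70 with vit C at 48 h (-1.17, q = 0.00322). At 96 h DCN (2.48, q = 0.0019), LYZ (1.17, q = 0.0422) and FCGR2A (1.05, q = 0.015) were higher with vit C. CD14, the endotoxin receptor, rose from 8 to 48 h by 4.14 in UT cells and 5.06 with vit C. LYZ, lysozyme, fell from 8 to 48 h by 2.93 and 2.41, and CD68, a lysosomal protein, by 1.58 with vit C. At 96 h against 8 h, 1 of the 8 macrophage markers was higher and 4 lower in UT cells, and 2 were higher and 2 lower with vit C. Of all genes 8.90% were higher and 7.18% lower in UT cells, and 10.9% higher and 18.0% lower with vit C. The part of the marker shifts in the results given here was not tested.

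Of the 17 member probes, 14 were above background on every array. PPARG, NR1H3 and FABP4 had 1 probe each, PPARD, RXRA and NR1H2 had 2, and PPARA and FABP5 had 4. FABP4 was above background on 18 arrays, and the dim PPARA probes 3 and 4 were so on 5 and 2. Probes of a gene are numbered from the brightest, which stands for the gene where 1 value is given. A single probe each of 4 receptors, 60 bases as deposited, is printed to show what the array carried for them.
PPARG probe 1: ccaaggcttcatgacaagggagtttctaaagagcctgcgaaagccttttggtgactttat
PPARA probe 3: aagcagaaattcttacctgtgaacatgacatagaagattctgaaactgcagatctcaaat
PPARD probe 2: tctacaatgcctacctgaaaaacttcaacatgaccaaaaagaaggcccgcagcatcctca
NR1H2 probe 2: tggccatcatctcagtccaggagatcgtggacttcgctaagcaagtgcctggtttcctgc
The GC content of the PPARG and PPARD probes was 45%, that of the PPARA probe 35% and that of the NR1H2 probe 55%. No part of these probes longer than 12 bases occurred in the probe of another member.

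PPARG and NR1H3 were the receptors that passed in a comparison of 2 groups, and RefSeq promoter windows are shown for them. RefSeq (GRCh38.p14) gave 16 windows of 250 bases upstream of a start for 6 members. The binding element shared by these receptors, AGGTCA on either strand, occurred in 4 of the 16, 3 of PPARG and 1 of NR1H3, while 12.1% of all 35116 windows held it. A pair of the PPARG windows overlap and share their copy. Capitals mark the element. The PPARG window, chr3:12287118-12287367 on the plus strand, holds 2 copies, and the NR1H3 window, chr11:47248050-47248299 on the plus strand, holds 1.
PPARG: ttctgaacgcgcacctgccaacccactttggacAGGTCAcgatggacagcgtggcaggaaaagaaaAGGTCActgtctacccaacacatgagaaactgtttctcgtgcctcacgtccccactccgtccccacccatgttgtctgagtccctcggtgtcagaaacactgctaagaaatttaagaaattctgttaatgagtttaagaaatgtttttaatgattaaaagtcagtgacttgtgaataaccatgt
NR1H3: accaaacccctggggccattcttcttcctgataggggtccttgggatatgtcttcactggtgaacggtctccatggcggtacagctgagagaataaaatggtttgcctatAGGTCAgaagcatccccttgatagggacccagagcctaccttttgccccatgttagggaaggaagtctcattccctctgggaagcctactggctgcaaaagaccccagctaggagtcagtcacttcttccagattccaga
Paired elements with 1 base between them, AGGTCANAGGTCA, or 4 bases, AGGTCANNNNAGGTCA, were in no member window, and neither was TGACTCA. All windows together held these at 0.0171%, 0.0142% and 4.2%.

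Time in culture gave calls for 4 members and vit C for 1. Over time the LXR alpha gene NR1H3 rose at 24 h in both arms and was back near its 8 h level at 96 h, while FABP4 and FABP5 were lower late in the course. With vit C, 1 member at 1 time point passed the test: PPARG was higher at 48 h. A probe passed at a log2 difference of at least 1 and a q, the limma p-value adjusted by Benjamini-Hochberg, of at most 0.05, and a gene whose probes moved in opposite directions was left out of that comparison.

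**Figure D1:**
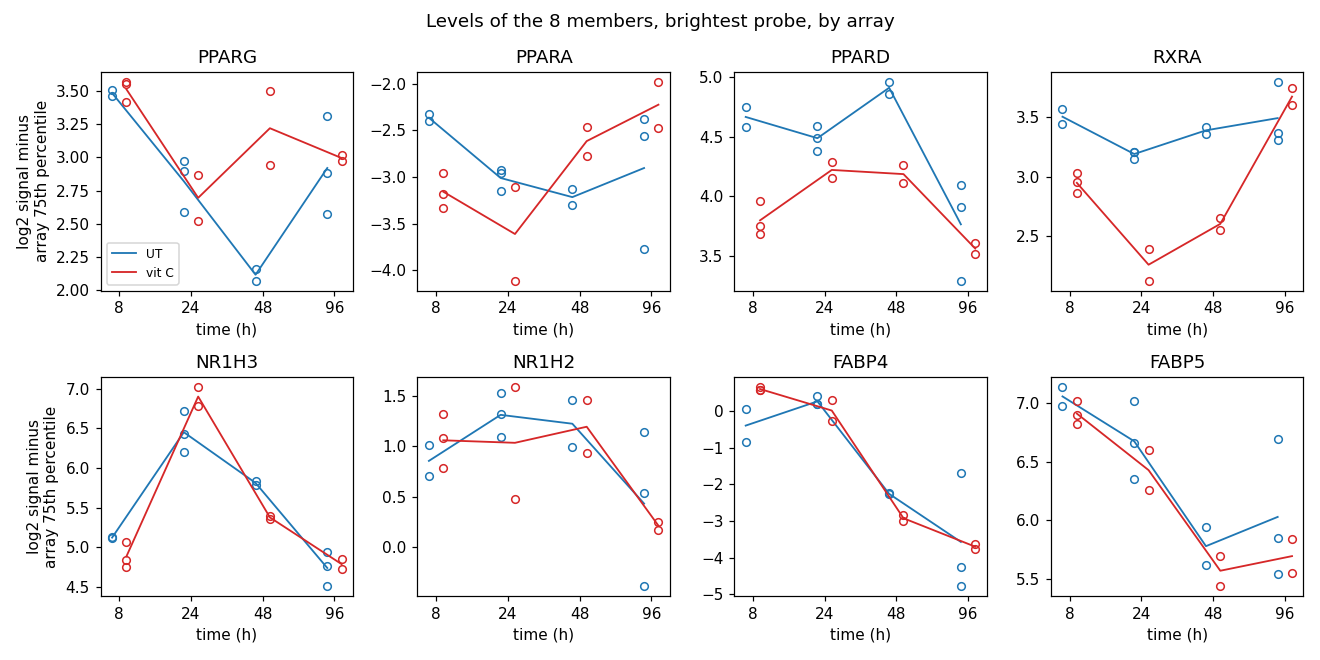
Level of each member's brightest probe (log2 signal minus the array's 75th percentile) against time, where each circle is 1 array, blue for UT and red for vit C, and lines join group means. The 4 times are evenly spaced. PPARG reads 2.07 and 2.16 in UT at 48 h and 3.50 and 2.94 with vit C, NR1H3 peaks at 24 h in both arms, and FABP4 and FABP5 fall. The vertical axes differ between panels.

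The plot of levels by array shows these courses. In UT cells 1 member passed at 24 h against 8 h (NR1H3), where 2.65% of all genes tested passed, 2 at 48 h (PPARG and FABP5), where 8.90% did, and 1 at 96 h (FABP4), where 16.1% did. In vit C-treated cells 1 passed at 24 h (NR1H3) against 5.61% of genes, 2 at 48 h (FABP4 and FABP5) against 13.1%, and 2 at 96 h (the same pair of names) against 28.9%. The 3 comparisons of an arm share its 8 h arrays. The median difference of all probes lay between -0.19 and 0.1 over the comparisons, so that small member values sit on a shift of this size.

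NR1H3, the LXR form that macrophages can raise, peaked at 24 h in both arms. In UT cells its level was 5.11 and 5.13 at 8 h, 6.72, 6.2 and 6.43 at 24 h, 5.84 and 5.78 at 48 h, and 4.94, 4.76 and 4.51 at 96 h. With vit C it was 4.84, 4.75 and 5.06 at 8 h, 7.02 and 6.78 at 24 h, 5.36 and 5.39 at 48 h, and 4.85 and 4.72 at 96 h. In each arm no array of another time reached the 24 h arrays. The rise from 8 to 24 h was 1.33 on the log2 scale in UT cells (SE 0.20, 2.51-fold, q = 0.00166) and 2.02 with vit C (SE 0.20, 4.04-fold, q = 2.57e-05). Each of these comparisons lay within 1 slide. Ranked by mean, vit C at 24 h stood first at 6.90 and UT at 24 h second at 6.45, with no overlap between their arrays, and UT at 48 h (5.81), vit C at 48 h (5.38) and UT at 8 h (5.12) followed, each apart from the next. The last groups, vit C at 8 h (4.88), vit C at 96 h (4.78) and UT at 96 h (4.74), overlapped. The vit C difference at 24 h, 0.45 (SE 0.20, q = 0.262), did not pass, and the test of whether the vit C difference varied over the 4 times gave q = 0.255 for this probe. At 24 h the arms were on different slides. With the slide as a fixed block the difference there was 0.76 (SE 0.33, q = 0.571), which did not pass, next to 0.07 at 8 h and -0.15 at 48 h.

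NR1H2, the LXR form that most tissues hold at a steady level, passed in no comparison. Its brightest probe lay between -0.39 and 1.59, and each group overlapped its neighbour in rank. The lowest array was UT 96 h replicate 3, also in probe 2 at -3.04.

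PPARG, the receptor that drives fat storage genes, was lowest in UT cells at 48 h, and it was higher with vit C at that time. Its level was 3.51 and 3.46 in UT cells at 8 h, 2.59, 2.97 and 2.90 at 24 h, 2.07 and 2.16 at 48 h, and 3.31, 2.57 and 2.88 at 96 h. With vit C it was 3.57, 3.55 and 3.42 at 8 h, 2.52 and 2.87 at 24 h, 3.50 and 2.94 at 48 h, and 2.97 and 3.02 at 96 h. The UT arrays of 48 h were the lowest of all 19, apart from every other group. From 8 to 48 h PPARG fell by 1.37 in UT cells (SE 0.26, 2.59-fold, q = 0.00287), within slide 1. With vit C the same interval gave -0.29 (SE 0.23), which did not pass.

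At 48 h PPARG was 2.15-fold higher with vit C than in UT cells (log2 difference 1.1, SE 0.26, 95% interval 0.55 to 1.65, q = 0.029). It was the single member that passed, where 3.64% of genes did. The 2 groups did not overlap, which held for 50.8% of all genes at this time. The difference was 0.02, -0.12 and 0.08 at 8, 24 and 96 h, with intervals from -0.48 to 0.52, -0.62 to 0.38 and -0.42 to 0.58. With the slide as a fixed block the difference was 0.61 (SE 0.32, q = 0.703) at 8 h and 0.46 (SE 0.32, q = 0.777) at 24 h. Neither passed. The test of a vit C difference varying over time gave q = 0.188. The call at 48 h was lost in 3 of the 4 fits that left out 1 array, with values of 0.83 without vit C replicate 1 (q = 0.224), 1.06 without UT replicate 1 (q = 0.171) and 1.15 without UT replicate 2 (q = 0.14), and kept without vit C replicate 2 (1.38, q = 0.0466). With the slide as a fixed block it was 1.96 (SE 0.36, q = 0.039), a value that rests on vit C replicate 1 alone, since replicate 2 was the only array of slide 3, and in a fit that called 138 genes at 48 h in place of 926. Of 16 other settings 5 lost the call, among them normexp background correction (0.92), a fit of the 2 groups alone, the replicate block (q = 0.0559) and the methods' t-test, adjusted or not. The fit of the 2 groups alone called 0 of all genes at 48 h, so that no gene could keep a call there. The adjusted t-test called 3 of all genes.

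PPARA, the receptor of fatty acid burning, was dim. Its probe 1 was -2.33 and -2.40 in UT cells at 8 h, -2.92 to -3.15 at 24 h, -3.30 and -3.13 at 48 h and -2.56, -3.77 and -2.38 at 96 h, and with vit C -2.96 to -3.33 at 8 h, -4.11 and -3.11 at 24 h, -2.77 and -2.46 at 48 h and -2.47 and -1.98 at 96 h. Probe 2 was -4.06 and -4.20 in UT cells at 48 h and -2.91 and -3.35 with vit C, a difference of 1.00 (SE 0.27, q = 0.0556), and probe 1 differed by 0.60 (SE 0.40, q = 0.537). Neither passed. Probe 4, below background on all arrays but the 2 vit C arrays of 96 h (-4.54 and -4.88), was at least 1.24-fold higher there than in UT cells of 96 h. The probes of PPARA moved in opposite directions at this time, which kept the gene out of the calls, and q was 0.012 with such genes kept. Probe 4 was also the single member probe whose vit C difference varied over the 4 times (F test, q = 0.0491), as it did for 1.36% of gene names.

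PPARD, the widely expressed form, and RXRA both lay lower with vit C at early times by their brightest probe. PPARD was 4.75 and 4.58 in UT cells at 8 h, 4.38, 4.49 and 4.59 at 24 h, 4.96 and 4.86 at 48 h, and 4.09, 3.91 and 3.29 at 96 h. With vit C it was 3.68, 3.75 and 3.96 at 8 h, 4.15 and 4.29 at 24 h, 4.11 and 4.26 at 48 h, and 3.61 and 3.51 at 96 h. Its arrays did not overlap between arms at 8, 24 and 48 h, and the differences were -0.87 (q = 0.0911), -0.27 (q = 0.485) and -0.72 (q = 0.119). The mean difference over the 4 times was -0.52 (SE 0.11, q = 0.00751), below the 2-fold limit.

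RXRA probe 1 was 3.44 and 3.57 in UT cells at 8 h, 3.21, 3.15 and 3.21 at 24 h, 3.36 and 3.42 at 48 h, and 3.80, 3.37 and 3.31 at 96 h. With vit C it was 2.86, 2.95 and 3.03 at 8 h, 2.12 and 2.39 at 24 h, 2.55 and 2.65 at 48 h, and 3.75 and 3.60 at 96 h. The arms were apart until 48 h and overlapped at 96 h. The differences were -0.56 (q = 0.187) at 8 h, -0.93 (SE 0.18, q = 0.0195) at 24 h, which fell short of the 2-fold limit, and -0.79 (SE 0.20) at 48 h, where the probes moved in opposite directions and no q was taken. RXRA probe 2 gave -0.15, -0.01 and 0.32 at these times. In a fit with the slide as a fixed block the values of probe 1 were -0.10, -0.48 and -0.38, and those of PPARD probe 1 were -0.39, 0.22 and -0.31. The part of the slide in these differences was not tested beyond that.

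The arrays of the arms did not overlap in the brightest probe of 5 members at 8 h (39.1% of all genes), 3 at 24 h (30.2%), 6 at 48 h (50.8%) and 0 at 96 h (36.9%). Over time the same held against 8 h in UT cells for 6 members at 24 h (34.8%), 7 at 48 h (63.2%) and 5 at 96 h (36.9%). These counts in vit C-treated cells were 6 (34.9%), 6 (51.5%) and 7 (67.5%).

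Across the members, no difference between vit C and UT passed at 8, 24 or 96 h in limma, where 0.549%, 1.65% and 12.8% of genes tested did. The share at 96 h depends on the scaling. It stood for 716 genes higher and 2659 lower, which became 560 and 440 under quantile normalization, 734 and 708 with the percentile taken over probes detected on all arrays, and 417 and 325 with signals floored at 20. With vit C at 96 h against 8 h, 2964 higher and 4878 lower became 2800 and 2410 under quantile normalization. At 8, 24 and 96 h a probe of 4, 4 and 1 members had an unadjusted limma p under 0.05, and the brightest probe of 3, 2 and 0. No share of all genes is given for that p. The methods' t-test passed no member at any of these times, adjusted or not. Of all genes it called 12, 0 and 0 adjusted, so that none could pass at 24 and 96 h, and 1298, 1315 and 3317 unadjusted. For the mean over the 4 times no member passed, against 3.46% of genes. There 4 members, or 3 by brightest probe, had an unadjusted p under 0.05, and the methods hold no t-test of this mean. Genes left out because their probes opposed each other numbered 3 of the 8 members at 8 h, 2 each at 24 and 48 h, and 5 at 96 h.

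**Figure D2:**
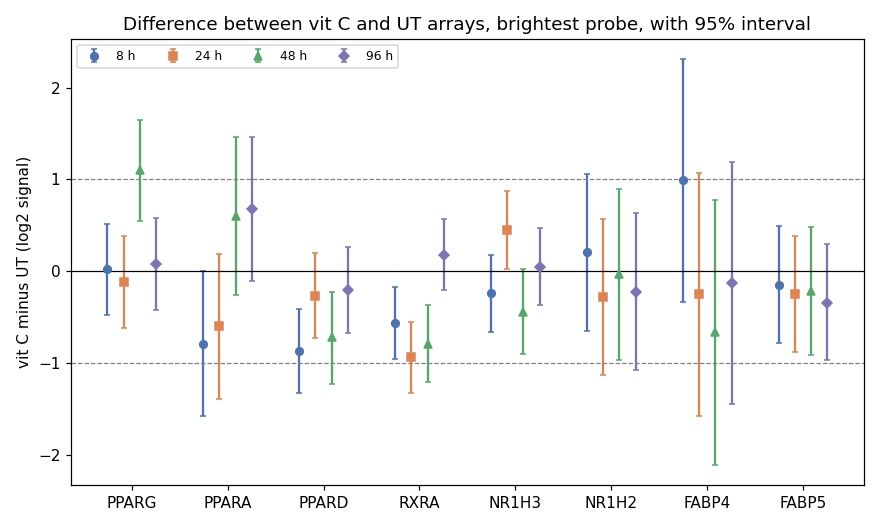
Vit C minus UT in log2 signal for each member's brightest probe, at 8, 24, 48 and 96 h, with 95% intervals from the fit of 8 group means and dashed lines at -1 and 1. PPARG at 48 h (1.1) is the single value past the 2-fold line with a q of at most 0.05, and the widest intervals are those of FABP4.

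FABP4, with the widest intervals in the plot of vit C differences, passed at no time between the arms and fell late in both. FABP4 was -0.85 and 0.05 in UT cells at 8 h, 0.40, 0.19 and 0.19 at 24 h, -2.27 and -2.25 at 48 h, and -4.77, -4.25 and -1.69 at 96 h, the first of these below background. With vit C it was 0.58, 0.65 and 0.56 at 8 h, 0.29 and -0.27 at 24 h, -3 and -2.85 at 48 h, and -3.63 and -3.77 at 96 h. Every array of 48 and 96 h lay below every array of 8 and 24 h in both arms. From 8 to 96 h FABP4 fell by 3.17 in UT cells (SE 0.62, 8.99-fold, q = 0.00183), with -1.68 under normexp background correction, and by 4.30 with vit C (SE 0.62, 19.6-fold, q = 0.000126), and from 8 to 48 h by 3.52 with vit C (SE 0.62, 11.5-fold, q = 0.00105). In UT cells the 48 h value, -1.86, did not pass (q = 0.103).

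Without UT 96 h replicate 3 the fall of FABP4 in UT cells was 4.11 (q = 4.42e-07). At 96 h vit C differed from UT by -0.13 (interval -1.45 to 1.19), and by 0.81 without that array (q = 0.0441), under the 2-fold limit and with 1 of the other UT arrays below background. At 8 h the arms were apart, at 0.99 higher with vit C (interval -0.33 to 2.31, q = 0.557). With the slide as a block the direction turned, to -0.81 (q = 0.755), and the values at 24 and 48 h were -2.06 (q = 0.58) and -2.54 (q = 0.46), none past the test.

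FABP5, the carrier most tissues make, fell too. Its probe 1 was 6.98 and 7.14 in UT cells at 8 h, 7.02, 6.35 and 6.66 at 24 h, 5.62 and 5.94 at 48 h, and 5.54, 5.85 and 6.70 at 96 h, and with vit C 6.90, 6.82 and 7.02 at 8 h, 6.26 and 6.60 at 24 h, 5.44 and 5.70 at 48 h, and 5.55 and 5.84 at 96 h. Probes 1, 2 and 3 fell by 1.28, 1.39 and 1.70 from 8 to 48 h in UT cells (q = 0.0204, 0.0148 and 0.00929) and by 1.35, 1.54 and 1.81 with vit C (q = 0.0055, 0.00256 and 0.00191). At 96 h the UT arrays spread, with replicate 3 back at 6.70 beside 5.54 and 5.85, and the probes opposed each other, so no call was made. Without that array probe 1 gave -1.36 (q = 0.000912). With vit C the fall to 96 h was 1.22 (SE 0.30, q = 0.00709). Leaving out 1 array moved probe 1 out of the calls in UT cells at 48 h whichever of the 4 it was (-1.12 to -1.44), with vit C at 48 h without replicate 1 of 48 h (-1.22, q = 0.0637), and with vit C at 96 h without replicate 1 of 96 h (-1.07, q = 0.0581). For probes 1, 2 and 3, no vit C difference at any time had a size over 0.75. With the slide as a block probe 1 gave -0.88, -0.98 and -1.08 at 8, 24 and 48 h, again not past the test.

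FABP5 probe 4 differed from the others by slide. It lay between 0.21 and 2.38 on the 8 arrays of slide 1 and between 2.79 and 4.44 on the 11 others, so that vit C lay above UT by 2.24, 1.93 and 2.51 at 8, 24 and 48 h, where the arms were on different slides. The slide-blocked values were -0.29, -0.60 and -0.27. Within a slide it fell as the others did, by 1.46 from 8 to 48 h on slide 1 in UT cells and by 1.45 on slide 2 with vit C, next to falls of 1.28 to 1.83 in probes 1, 2 and 3. The falls on slide 2 rest on 1 vit C array of 48 h. At 96 h the UT array of slide 1 read 0.93 and those of slide 2 read 2.99 and 3.92, next to 3.08 and 2.79 with vit C. Such a full split, with slide 1 the lower, was seen in 500 of the 50238 probes (0.995%), and in no other member probe. Probe 4 overlaps probe 1 over 60 of 60 bases with 3 mismatches, and FABP5 has near-identical copies elsewhere in the genome, so that which transcript each probe reports is uncertain. The probe of FABP5L3, a copy named after its values were seen, stayed between -8.10 and -2.92 on all arrays.

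**Figure D3:**
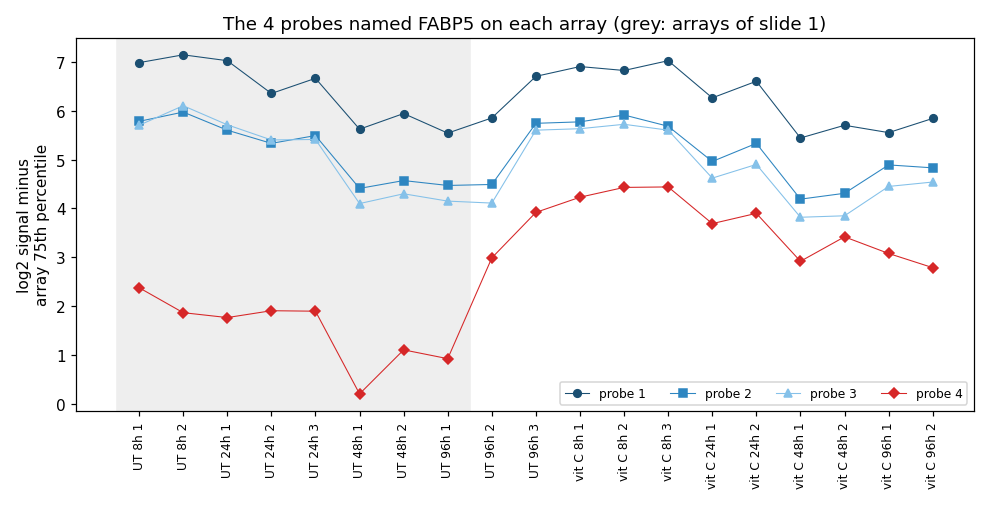
The 4 probes named FABP5 on each of the 19 arrays (log2 signal minus the array's 75th percentile), with the arrays of slide 1 on a grey ground. All 4 fall from 8 to 48 h within a slide (on slide 2 with 1 array of 48 h), and probe 4 is also at 0.21 to 2.38 on slide 1 and at 2.79 to 4.44 elsewhere.

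The plot of the 4 FABP5 probes shows the fall with time in all 4 probes within slide 1 and within slide 2, there with 1 array of 48 h. It also shows the added step of probe 4 between slide 1 and the others. Over the 8 group means FABP4 and FABP5 probe 1 correlated at r = 0.86 over points that share arrays.

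Many genes that LXRs are known to switch on rose with time in both arms. Of 15 such genes, 1 was higher at 24 h than at 8 h in UT cells (ABCA1), where 357 of the 26089 genes tested were. The list median was 0.54 against 0.05 for all genes. At 48 h 7 were higher and none lower (5.53% of all genes were higher), with a list median of 0.93 against 0.04 for all genes. At 96 h 8 were higher (8.90% of all genes), or 9 without UT 96 h replicate 3. With vit C 4 were higher at 24 h, 7 at 48 h, and 8 were higher and 1 lower at 96 h (2.95%, 8.10% and 10.9% of all genes were higher, and 18.0% lower at 96 h). Under quantile normalization none was lower. All 15 were tested in these comparisons but for 14 at 24 h with vit C. The list medians with vit C were -0.03, 0.81 and 1.24, against -0.06, 0.08 and -0.17 for all genes.

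ABCA1, which loads cholesterol onto apolipoproteins, rose by 2.71 from 8 to 48 h in UT cells (q = 2.38e-05) and by 3.23 with vit C (q = 9.44e-07). ABCG1, a second cholesterol exporter, went from -4.93 and -5.39 to -0.07 and -0.44 in UT cells, 1 of the 8 h arrays being below background (4.90, q = 4.21e-05). With vit C it was below background on the 3 arrays of 8 h and at least 22.9-fold higher at 48 h. SREBF1, the switch of fatty acid synthesis, rose by 1.5 and 2.4, and APOE by 2.14 and 1.71. MYLIP, which removes the LDL receptor, rose by 1.49 in UT cells and by 1.24 with vit C from 8 to 96 h. ABCG8, the lower one, was above background on 1 of 19 arrays. ABCA1 had already passed at 24 h, the time of the NR1H3 peak, at 1.89 in UT cells (q = 0.000908) and 2.22 with vit C (q = 0.00011).

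Between vit C and UT cells, 0 of the LXR targets passed at 8 and 24 h (0.549% and 1.65% of genes did), APOC2 was lower at 48 h (-1.09, SE 0.19, q = 0.00701), and at 96 h APOC2 (-1.12, q = 0.00173) and APOC1 (-1.05, q = 0.00184) were lower and CETP, dim in both arms, was higher (1.52, q = 0.0424). Of all genes 1.56% were lower at 48 h, and at 96 h 10.1% were lower and 2.72% higher. APOC2 activates lipoprotein lipase, and APOC1 is carried with it on lipoproteins. The slide-blocked value of APOC2 at 48 h was -0.94 (q = 0.374), and at 96 h no such fit could be made. Under quantile normalization none of the 15 passed at 96 h, and without UT 96 h replicate 3 there were 2 lower and 2 higher.

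**Figure D4:**
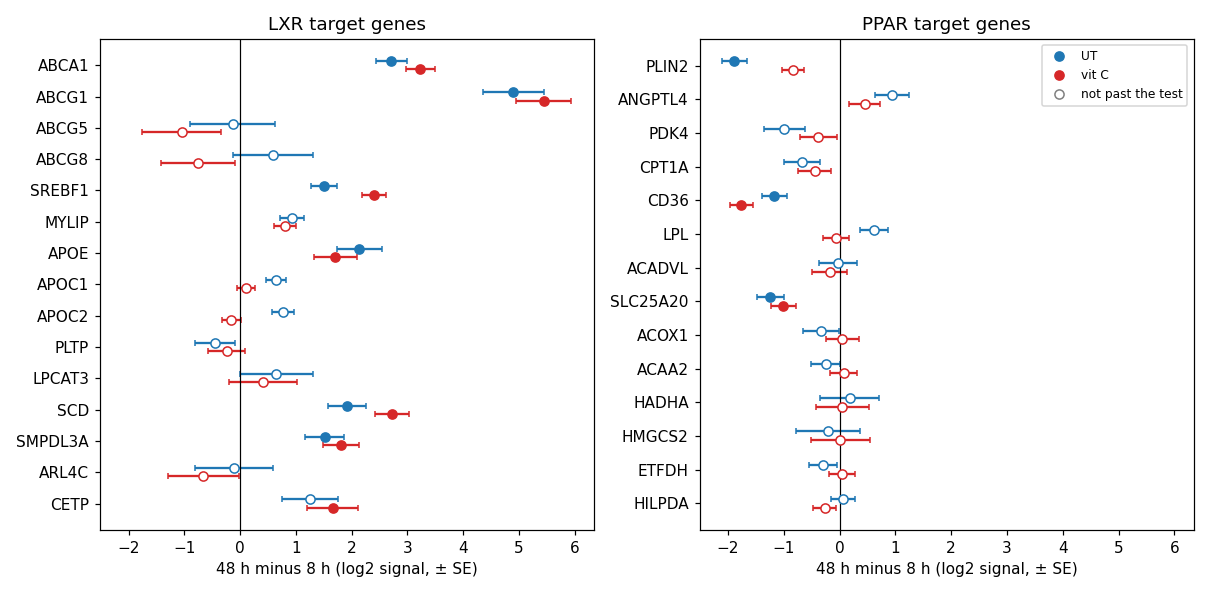
Change from 8 to 48 h (log2 signal, mean with SE) of 15 LXR target genes and 14 PPAR target genes by their brightest probe, blue for UT and red for vit C, filled where that probe passed the test. ABCA1, ABCG1, SREBF1, APOE, SCD and SMPDL3A are filled to the right in both arms, and CD36 and SLC25A20 are filled to the left in both.

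Over time, the PPAR target genes that passed were all lower than at 8 h. As the plot of the 2 lists shows, 3 of 12 tested were lower at 48 h than at 8 h in UT cells (the other 2 of 14 had opposing probes), with a list median of -0.28, and none higher (3.38% of all genes were lower). PLIN2, which coats lipid droplets, fell by 1.89 (SE 0.22, q = 6.2e-05), CD36, the fatty acid and oxidised LDL receptor, by 1.17 (q = 0.00468), and SLC25A20, the carnitine carrier of mitochondria, by 1.24 (q = 0.00396). At 96 h 4 of 13 tested were lower (PLIN2, ANGPTL4, CPT1A and SLC25A20), against 7.18% of all genes, or 3 without UT 96 h replicate 3. With vit C, with 13, 11 and 12 genes tested in order of time, 1 was lower at 24 h (PLIN2; 2.66% of all genes), 2 at 48 h (CD36 and SLC25A20; 5.02%) and 4 at 96 h (PLIN2, ANGPTL4, LPL and SLC25A20; 18.0%), and none higher. The slide-blocked fit called 1 lower in UT cells at 96 h and 1 with vit C at 48 h.

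Between the arms, PLIN2 was higher with vit C at 48 h (2.08% of all genes were) and ANGPTL4 lower at 24 and 48 h (0.835% of all genes were higher at 24 h and 0.820% lower). PLIN2, at 2.44 and 2.39 in UT cells and 3.69 and 3.39 with vit C at 48 h, differed by 1.13 (SE 0.22, q = 0.0126). ANGPTL4, an inhibitor of lipoprotein lipase, was lower with vit C by 1.55 at 24 h (q = 0.0137) and by 1.60 at 48 h (q = 0.0116). LPL, the lipase itself, was lower at 96 h by 1.64 (SE 0.23, q = 0.000908). Once slide was a block, neither PLIN2 (1.74, q = 0.054) nor ANGPTL4 (-0.98, q = 0.563) passed at 48 h, and ANGPTL4 did not at 24 h (-0.78, q = 0.665). Among the other well-known targets, CPT1A, the gate to mitochondrial fat burning, PDK4, a brake on glucose oxidation, and CD36 passed at no time between the arms.

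Of 11 other receptors, RXRB and RXRG with others that pair with a retinoid X receptor, none passed between the arms until 96 h. At 96 h RARB, above background on 1 array of all 19, and THRB, on 0, were called lower, where 10.1% of all genes were. At that time 8 of the 11 were tested, and under quantile normalization none passed. RARG, a retinoic acid receptor, fell from 8 to 96 h by 1.67 in UT cells (q = 0.00508) and 2.07 with vit C (q = 0.000893). With slide blocked the UT value was -1.21 (q = 0.166), which did not pass, and no such fit could be made with vit C at 96 h. VDR, the vitamin D receptor, was lower with vit C by 0.40 to 0.59 at all 4 times without passing (q = 0.0673 at 96 h). RXRB, a sister of RXRA, ranged from -1.25 to 1.13 and RARA from 0.49 to 2.09, and neither passed between the arms. Of 14 coactivators and corepressors 3 passed between the arms, all at 96 h and higher (PPARGC1A, NCOA3 and EP300, none by its brightest probe; 11 of the 14 were tested there), where 2.72% of all genes were, and 2 did without UT 96 h replicate 3. From 8 to 96 h with vit C 4 were higher, NRIP1, a corepressor, by 1.31 among them, and HDAC3, a histone deacetylase of corepressor complexes, was lower by 1.09, where 10.9% of all genes were higher and 18.0% lower. PPARGC1A, the PPAR coactivator of mitochondrial genes, was above background on 4 arrays. PPARGC1B, its relative, was between -2.48 and 0.56 and did not pass.

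Among 9 other fatty acid and retinoid carriers, CRABP1, a retinoic acid carrier, fell from 1.14 and 1.34 to -2.26 and -2.70 between 8 and 48 h in UT cells (-3.72, q = 9.38e-08) and from 1.14, 1.03 and 1.22 to -2.72 and -2.78 with vit C (-3.89, q = 1.21e-08). At 96 h CRABP2, a second such carrier, was lower with vit C by 1.65 (q = 0.000144). FABP7, the brain form, was at least 1.74-fold higher there than in UT cells, in which it was below background, and FABP6 was 1.48 higher (q = 0.0159). FABP7 at 48 h and a dimmer FABP3 probe at 24 h were called too, FABP7 while below background in both arms, and neither call held with slide as a fixed block. In all, 3 of 7 carriers tested were higher and 1 lower with vit C at 96 h, where 2.72% of all genes were higher and 10.1% lower (a split that quantile normalization turns, to 560 genes higher and 440 lower), and 3 were lower without UT 96 h replicate 3. FABP3, the muscle form, was above background on 5 arrays.

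Over the 8 group means, and among 9323 gene names detected on all arrays with means spanning at least 1 log2 unit, the course nearest to that of PPARG belonged to an unnamed expressed sequence (r = 0.96) and to PLIN2 (r = 0.94). For PPARA these were CDCA4 and TMED10P (r = 0.92 for both), for PPARD PFDN1 (r = 0.98) and GDPD5 (r = 0.96), and for RXRA C14orf142 (r = 0.98) and HS1BP3 (r = 0.95). NR1H3 was nearest to SNORA57 (r = 0.97) and MREG (r = 0.96), NR1H2 to PSCD2 and SNORA52 (r = 0.99 for both), and FABP5 had LOC730092 among its nearest (r = 0.99). These are descriptions over 8 points that share slides, and FABP4 was not ranked because it was not detected on all arrays.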

How the data were processed

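Total RNA was labelled with Cy3 and hybridised to 19 one-colour Agilent arrays. Per the labels and file headers, the authors scanned them with Agilent Feature Extraction 10.5.1.1, and the deposited files hold a background-corrected intensity for each of 52857 spots. The deposited value table holds log2 values of the same arrays, equal to the scanner log2 minus a constant within 3.68e-06. Each array's log2 intensity was set relative to its own 75th percentile, spots of 1 probe were averaged, and control spots left out. The number of arrays limits the precision. Means of 8 groups were fitted with limma 3.58.1 (R 4.3.3), and sequences and figures were handled in Python 3.11.15. Fits were tested on simulated data. The study's methods name a t-test per probe, kept as an alternative. Bounds ("at least") set probes below background in 1 group against the lowest signal well above background. The members and lists were chosen with earlier results of these data known. Named genes were the members, list genes that passed (at most 3 each way), well-known list genes, and the 2 closest courses. Lists were LXR targets, PPAR targets, other retinoid X receptors with receptors that pair with them, co-regulators, binding proteins and cell type markers. Of fibroblast markers DCN was above background on 14 arrays, COL1A1 on 5 and COL1A2 on 0, and of lymphocyte markers CD3E on 19, MS4A1 on 1 and CD3D on 0. A few listed or similar genes are not reported here. PLIN2 is listed as ADFP. Alternatives covered background, scaling, filters, test, slide, replicate number and single arrays.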

Additional observations from a re-analysis of the deposited data

Results flagged for a closer look

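The vit C difference of PPARA probe 4 varied between time points (F test in limma, q = 0.0491). The probe was well above background only on the 2 vit C arrays of 96 h, both on slide 4, so that no fold can be given at 8, 24 and 48 h, and at 96 h it was at least 1.24-fold higher with vit C. The part of the slide and of the scan day in this was not tested.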

How the results depend on the processing

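The count of 1 member at 48 h between vit C and UT became 0 by the methods' t-test after adjustment, in a fit of those 2 groups alone, with normexp background correction (PPARG 0.92) and with the replicate block, and 2 (PPARG and PPARA) with signals floored at 20 or with dim probes left out. Of all genes the 2-group fit called 0 at 48 h and the adjusted t-test 3. Unadjusted, the t-test counted 1 member, which was PPARA and not PPARG. Without a minimum fold it became 1 at 24 h (RXRA), 2 for the mean over time (RXRA and PPARD), 2 in UT cells at 96 h (FABP4 and PPARD) and 2 with vit C at 24 h (RXRA and NR1H3). Keeping genes with opposing probes gave 1 at 96 h (PPARA), 1 for the mean (FABP5) and 2 in UT cells at 96 h (FABP4 and FABP5), and leaving out dim probes gave 1 at 96 h (PPARA). No share of all genes is given beside the counts of these settings or of that without a minimum fold. The adjusted t-test gave 0 in UT cells at 24, 48 and 96 h and with vit C at 24 h, and unadjusted 0 in UT cells at 96 h. Adjusted, it called 0 of all genes in UT cells at 24 and 48 h and with vit C at 24 h. No member could pass there. In UT cells at 96 h it called 285 of all genes adjusted and 3344 unadjusted. The 2-group fit gave 0 in UT cells at 24 and 96 h, the slide as a fixed block 2 in UT cells at 96 h, and quantile normalization 1 with vit C at 96 h. The F test gave 2 with an intensity trend (PPARA and RXRA) and 0 with the mean of probes, the slide as a random block or the replicate block. Leaving out 1 array gave 0 to 1 members between vit C and UT at 48 and 96 h, 0 at 8 and 24 h and for the mean, 1 in both arms at 24 h, 1 to 2 in UT cells at 48 h, 1 to 3 at 96 h in each arm, 2 with vit C at 48 h, and 0 to 3 in the F test. No direction of a called member turned. The cause of these changes was not tested. Replicate numbers did not pair the arrays, since deviations of same-numbered arrays correlated at -0.34 to 0.13; with the replicate block PPARG at 48 h was 1.1 (q = 0.0559), and the counts other than that and the F test stayed as they were. List counts under other settings were chosen after seeing the data.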
